A study of Mus musculus with 6 samples.

Results

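The numbered zinc finger genes of the mouse, named Zfp and a number, were examined in Apc-knockout intestinal organoids labelled with or without IGF2BP3 overexpression. Of 52249 rows in the deposited count table, 376 carried such a name, and the 209 rows whose counts summed to 60 or more over the 6 libraries were taken as members. They stand for 208 gene symbols, because Zfp91 has 2 rows. The members were thus chosen by their counts, summed without regard to the group labels, so the rule selected on abundance and not on a difference between groups. The family and the lists below were themselves chosen with earlier results of these data known. Zfp93 (60 counts) and Zfp27 (62 counts) lay just inside the minimum, while Zfp595, Zfp825 and Zfp937 lay just outside it at 59 counts each. Of the 167 rows below the minimum, 50 had no count in any library. All 209 members passed the low-count filter of the test.

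Intestinal organoids are epithelial structures kept in culture that retain stem cells. Both groups lacked functional Apc, a brake on WNT signalling, according to the labels: the control group (3 libraries) carried the Apc-knockout alone, and the other (3 libraries) carried the Apc-knockout with IGF2BP3 overexpression, written OE. IGF2BP3 is an RNA-binding protein of fetal tissues and tumours. The labels do not give the promoter or vector of the overexpression, the number of mice, cultures or clones behind the libraries, or their age. The p-values below therefore measure the spread between these samples, which may be technical.

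The labels could be checked only in part. Igf2bp3 was counted 1, 0 and 0 times in control and 1, 0 and 0 times in OE-labelled libraries, under the floor of 3 counts in each, and the group is called OE-labelled. The labels do not give the construct, so whether its transcripts would be counted at the 3′ end of the mouse gene is not known, and these counts check nothing about the overexpression. Apc stood at 83.9, 81.6 and 75.6 CPM (the count relative to the TMM-scaled library total) in control and at 64.0, 59.4 and 62.6 CPM in OE-labelled libraries, and a 3′ count does not show whether the transcript is functional. Total counts ran from 2180116 to 2519917, which sets 3 counts at 1.18 to 1.41 CPM. Of 10 epithelial markers, 9 were above that floor in every library, whereas Cdx1 was at 0 throughout. Their sum ran from 4540 to 4770 CPM in control and from 5790 to 6360 CPM in OE-labelled libraries, without overlap. Krt18 stood at 1176, 1201 and 1160 CPM against 2443, 2089 and 2154 CPM, and Cldn7 went the other way, at 217, 189 and 204 CPM against 102, 106 and 77.8 CPM. Summed stromal markers reached 0.85 to 3.28 CPM and endothelial markers at most 0.92 CPM. Summed immune markers were at 47.9 to 53.0 CPM in control and 68.1 to 80.2 CPM in OE-labelled libraries, mostly Csf1r and Cd68, with Cd3e, Adgre1 and Tyrobp at 0 and Ptprc at most at 2 counts. Mitochondrial ribosomal RNA took 8.93% to 9.41% of the control counts and 3.89% to 4.36% of the OE-labelled counts. The part of these marker and RNA differences in the results was not tested. The library names run in one series for the control group and in a second for the OE-labelled group, and so batch and group cannot be told apart anywhere below. In bulk RNA, fewer cells of a type and less RNA per cell cannot be told apart either.

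A C2H2 zinc finger is a short loop in which a pair of cysteines and a pair of histidines hold a zinc ion, and tandem fingers joined by a conserved linker read DNA base by base. Many such proteins carry a KRAB domain at their amino end, which recruits the co-repressor TRIM28 (KAP1) and, through it, histone and DNA methylation that silence transposable elements and guard imprinted genes. KRAB genes multiplied by local duplication and sit in clusters, are typically expressed at low levels, and differ between mammals. Other Zfp names belong to proteins that bind RNA, ribosomes or transcription complexes.

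The members covered all these kinds. A coding sequence was found in GENCODE M21 for 207 of them, and 199 of these encoded at least 1 C2H2 finger by pattern, with a median of 10 fingers and a maximum of 36. A KRAB box was matched in 89 members and not in 118; the pattern can miss divergent boxes. KRAB members had a median of 12 fingers, against 7 in the others. The transcripts of KRAB members were also poor in G and C, with a median GC content of 41.4% against 50%.

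One finger of each of 5 members is shown so that the motif shared by the family can be seen in different codons. Each run is taken from the coding strand (GENCODE M21, GRCm38), read 5′ to 3′, with the codons of the 2 cysteines and 2 histidines in capitals. In Zfp62, Zfp605, Zfp41 and Zfp316 it is the first finger that is followed by the conserved linker, and the linker is included. No such finger was found in Zfp57, for which the first finger of the same spacing is shown. These stretches have a GC content of 50.8% in Zfp57, 47.4% in Zfp605, 53.8% in Zfp62, 48.7% in Zfp41 and 66.7% in Zfp316. They do not follow the whole transcripts in order, since the Zfp62 transcript has a GC content of 38.8% and that of Zfp605 42.6%.
Zfp57 (chr17:37009679-37009741, plus strand): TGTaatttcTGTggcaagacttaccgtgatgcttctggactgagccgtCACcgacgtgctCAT
Zfp605 (chr5:110128104-110128181, plus strand): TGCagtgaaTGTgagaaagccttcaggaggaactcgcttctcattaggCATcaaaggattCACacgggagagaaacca
Zfp62 (chr11:49215543-49215620, plus strand): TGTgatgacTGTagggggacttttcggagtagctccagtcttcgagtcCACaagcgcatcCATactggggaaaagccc
Zfp41 (chr15:75618465-75618542, plus strand): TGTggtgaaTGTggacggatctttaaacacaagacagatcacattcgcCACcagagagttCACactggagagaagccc
Zfp316 (chr5:143255075-143255152, minus strand): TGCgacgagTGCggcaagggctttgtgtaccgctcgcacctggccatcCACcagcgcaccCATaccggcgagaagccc

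The members were transcripts of low abundance. Together they held 0.543%, 0.551% and 0.577% of the counts in control replicates 1 to 3 and 0.528%, 0.521% and 0.537% in the OE-labelled replicates. The summed share was thus lower in each OE-labelled library than in any control library, by a small margin. The 89 KRAB members took 0.133% to 0.145% in control and 0.126% to 0.137% in OE-labelled libraries, and these ranges overlapped. All these shares are of total counts, which include the mitochondrial ribosomal RNA (8.93% to 9.41% in control, 3.89% to 4.36% in OE-labelled libraries). The size of the margin and the overlap therefore depend on that total. The median member had a mean of 14.2 CPM, against 30.3 CPM for all 10687 tested genes. Since 3′ libraries sample each transcript near its polyadenylated end, CPM was compared between genes without division by transcript length.

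Zfp106, which encodes an RNA-binding protein, was the most abundant member on this scale. It was counted at 320, 321 and 333 CPM in control and 261, 223 and 218 CPM in OE-labelled libraries. These ranges did not overlap, and the log2 fold change of OE-labelled over control was -0.47 ± 0.11 SE (edgeR adjusted p = 0.00589). Zfp292, a gene of a large protein with many fingers, stood at 212, 260 and 244 CPM against 191, 149 and 205 CPM. All OE-labelled values lay below the control values, by a narrow gap (edgeR log2 fold change -0.39 ± 0.13 SE, adjusted p = 0.0415). That call was lost with an offset for GC content (adjusted p = 0.449, the highest of its alternatives, which began at 0.00531) and when any of the control libraries or OE-labelled replicate 2 was left out (adjusted p from 0.0595 to 0.178).

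Zfp706, which encodes a small protein with a single finger, rose. It was counted at 163, 152 and 157 CPM in control and 207, 263 and 263 CPM in OE-labelled libraries, without overlap, an edgeR log2 fold change of 0.64 ± 0.12 SE (adjusted p = 0.00206). The last 500 bases of its transcript match 15 other annotated genes at 95% identity or more, so its counts are uncertain. Zfp91, the gene of a ubiquitin ligase, fell from 203, 226 and 213 CPM to 164, 158 and 136 CPM, again without overlap (edgeR log2 fold change -0.48 ± 0.11 SE, adjusted p = 0.00693). Its call was lost without control replicate 2 (adjusted p = 0.0506), and it shares fractional counts with its second row. That second row, at a mean of 58.1 CPM, was not called (edgeR log2 fold change -0.1). Zfp703, a co-repressor gene of luminal epithelium, was at 153, 152 and 152 CPM and at 182, 147 and 126 CPM. The control values lay inside the OE-labelled range (edgeR log2 fold change -0.01 ± 0.13 SE), and the sign flipped with library totals and without OE-labelled replicate 3. Zfp207, whose product binds the spindle checkpoint protein BUB3, was at 131, 125 and 139 CPM against 99.7, 122 and 146 CPM. These ranges overlapped (edgeR log2 fold change -0.10 ± 0.14 SE), and the sign flipped with the GC offset.

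The comparison of the groups called 50 of the 209 members (23.9%) at an edgeR adjusted p below 0.05, beside 29.2% of all tested genes. Of the calls, 32 were lower in OE-labelled libraries (15.3% of the members, beside 12.7% of all genes) and 18 were higher (8.61%, beside 16.5%). The members' calls lay more to the lower side and those of all genes more to the higher side; the difference between the shares was not tested. The median log2 fold change of the members was -0.13, against 0.04 for all tested genes, and 78 of 209 were above 0. CPM ranges did not overlap for 81 members (38.8%, beside 45.7% of all genes). Among the called members, 49 of 50 did not overlap, Zfp335 being the exception. The share without overlap among all called genes is not given here, so the 49 add nothing to the calls themselves. A change of at least 2-fold was seen in 12 called members, 8 lower and 4 higher, beside 575 of the 10687 tested genes (5.38%, with 2.98% lower and 2.40% higher). Of the 50, 22 overlap another annotated gene, 9 of them on the same strand (Zfp91, Zfp445, Zfp512 and Zfp638 among those described below), and Zfp1 and Zfp706 share their 3′ end with other genes, so these counts can hold reads of another gene.

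**Figure D1:**
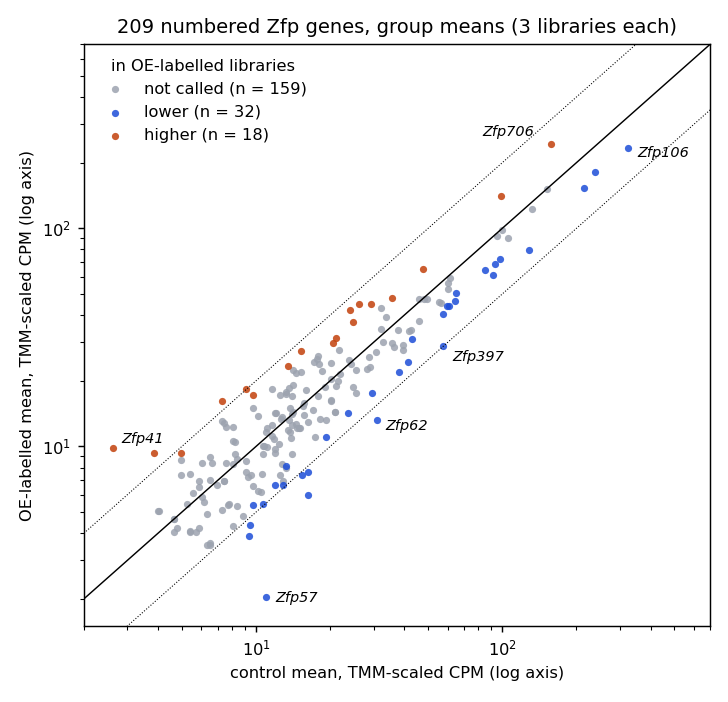
Mean TMM-scaled CPM of each of the 209 members in 3 control libraries (horizontal, log axis) and 3 OE-labelled libraries (vertical, log axis); the solid line marks equal means and the dotted lines a 2-fold difference. Blue points (32) were called lower, orange points (18) higher, and grey points (159) not called; Zfp57 and Zfp41 lie farthest outside the dotted lines, and the lower calls reach to the most abundant members.

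The lower calls were frequent among abundant members. Of the 25 members at 50 CPM or more, 12 were called lower (48.0%) and 3 higher (12%), beside 17.2% and 26.4% of all tested genes at that level. With an offset for GC content, described below, 3 of these 25 were lower and 2 higher, beside 468 and 778 of the 3620 tested genes at that level. Of the 120 members between 10 and 50 CPM, 13 were lower and 12 higher (10.8% and 10%, beside 11% and 13.2%). Of the 64 members under 10 CPM, 7 were lower and 3 higher (10.9% and 4.69%, beside 8.28% and 6.26%). Over all genes too the share called rose with abundance, from 14.5% to 24.3% and 43.6%.

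The counts of calls depended on which libraries entered. The spread within groups was unequal, with a biological coefficient of variation over all genes of 3.1% in control and 17.2% in OE-labelled libraries. The members' own median coefficient of variation was 15.5% and 18.1%. That measure includes counting error, which the biological coefficient leaves out, so it cannot show whether the members' biological spread was alike in the groups. Without control replicate 3, 9 members were lower and 9 higher (beside 6.52% and 9.42% of all genes). Without OE-labelled replicate 2, 21 were lower and 6 higher (beside 9.86% and 11.3%). Without control replicate 1 there were 17 lower and 8 higher (12% of the members in all, beside 17.3% of all genes, with 7.27% lower and 10% higher), and without control replicate 2 there were 14 and 8 (10.5%, beside 16.8%, with 6.91% lower and 9.84% higher). The DESeq2 test called 25 members, 19 lower and 6 higher, all of them among the 50 (12% of the members, beside 19.6% of all genes, with 9.70% lower and 9.91% higher). There were 13 members that were called under each alternative that tested them: Zfp57, Zfp462, Zfp62, Zfp397, Zfp330, Zfp266, Zfp704 and Zfp106 lower, and Zfp41, Zfp579, Zfp282, Zfp316 and Zfp706 higher. The share of all tested genes called under every alternative is not given here, so this count has no background beside it.

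Base composition moved with the fold changes. Across the 208 members with a sequence, log2 fold change and GC content of the longest transcript had a Spearman rho of 0.28, a description over genes that share the same 6 libraries, and over all tested genes it was 0.37. The lower members had a median GC content of 42.6%, the higher members 47.6%, all members 45.7% and all tested genes 49.7%. Among the 69 members under 42% GC, 15 were lower and 2 higher (21.7% and 2.90%, beside 24.4% and 4.11% of all genes in that range). Among the 71 members with at least 50% GC, 3 were lower and 8 higher (4.23% and 11.3%, beside 6.28% and 25%).

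With a GC offset for each library, 38 members were called (beside 23.0% of all genes), 17 lower and 21 higher (beside 10.3% and 12.7%). The balance of lower over higher members was therefore no longer present under the offset, with a share of higher calls of 55.3% in place of 36.0%. Of the 50 calls, 30 were shared, 16 of them lower and 14 higher. The median log2 fold change of the members became -0.08 and the rho with GC content -0.08. What part composition had in any single gene was not tested.

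**Figure D2:**
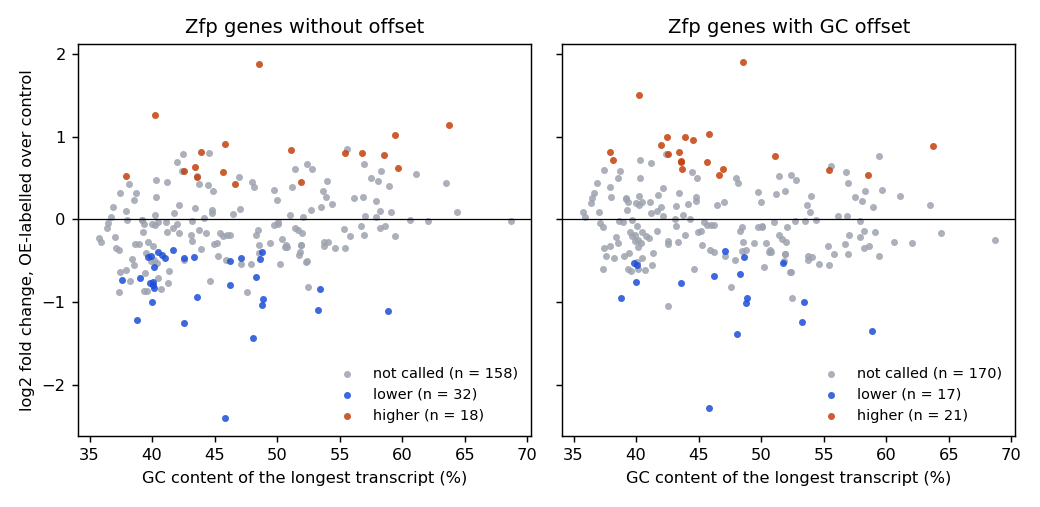
Log2 fold change (OE-labelled over control, vertical) of the 208 members with a sequence against the GC content of the longest transcript in percent (horizontal), without an offset on the left and with a GC offset per library on the right; blue marks members called lower and orange those called higher. On the left 15 of the 32 lower calls lie under 42% GC, and the higher calls (18) spread over the range, whereas on the right 17 lower and 21 higher calls remain.

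The member with the largest decrease was Zfp57, a KRAB gene whose product binds methylated imprinting control regions and keeps them methylated. Its counts were 23, 23 and 25 in control and 7, 3 and 5 in OE-labelled libraries. In CPM these were 10.6, 10.8 and 11.5 against 2.84, 1.18 and 2.11. The highest OE-labelled value lay far below the lowest control value. The edgeR log2 fold change was -2.40 ± 0.35 SE (adjusted p = 0.000507), a 5.28-fold decrease, and its adjusted p over the alternatives ran from 4.69e-08 to 0.00623. Zfp57 lies on the plus strand of chromosome 17 (37001163 to 37010635 in GRCm38) and overlaps no annotated gene. One OE-labelled library was at the floor of 3 counts, which limits the precision of the fold.

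Zfp462, a large gene with 33 finger patterns whose product helps to keep heterochromatin silent, followed. It was counted at 12.4, 15.95 and 20.3 CPM in control and 4.46, 5.51 and 8.03 CPM in OE-labelled libraries. The groups did not overlap (edgeR log2 fold change -1.43 ± 0.29 SE, adjusted p = 0.00350), and the call held in all 18 alternatives. Zfp62, with 25 finger patterns, fell from 28.6, 32.8 and 31.3 CPM to 12.2, 14.2 and 13.5 CPM. Both groups were tight and far apart (edgeR log2 fold change -1.22 ± 0.18 SE, adjusted p = 0.000637), and this call too held in all 18 alternatives. Zfp397 was at 59.5, 57.2 and 56.2 CPM in control and 25.1, 30.3 and 30.9 CPM in OE-labelled libraries. With an edgeR log2 fold change of -1.002 ± 0.14 SE (adjusted p = 0.000505), the groups lay far apart, and it was called in all 18 alternatives.

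The other large decreases were less stable. Zfp605 was at 9.22, 6.10 and 12.9 CPM against 4.86, 4.72 and 2.11 CPM, apart but widely spread within groups (edgeR log2 fold change -1.25 ± 0.38 SE, adjusted p = 0.0269). It was called in 8 of 17 alternatives and was lost without control replicate 1 or 3 or OE-labelled replicate 2 or 3 (adjusted p from 0.0523 to 0.149). Zfp503, which encodes a co-repressor with a role in development, was at 10.6, 8.91 and 8.75 CPM against 2.84, 4.33 and 5.92 CPM. The OE-labelled values were widely spread below the control values (edgeR log2 fold change -1.11 ± 0.32 SE, adjusted p = 0.0208). Its call was lost without any of the control replicates or OE-labelled replicate 2 (adjusted p from 0.0536 to 0.0868).

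Zfp646 was counted at 18.0, 12.2 and 18.4 CPM in control and 5.67, 8.65 and 8.46 CPM in OE-labelled libraries, with no overlap (edgeR log2 fold change -1.09 ± 0.27 SE, adjusted p = 0.00944). Its call was lost only without control replicate 3 (adjusted p = 0.0538). Zfp608 stood at 11.5, 21.1 and 13.4 CPM against 9.72, 7.47 and 5.07 CPM, with a narrow gap between the groups (edgeR log2 fold change -1.03 ± 0.31 SE, adjusted p = 0.0247). It was lost without control replicate 2 or 3 or OE-labelled replicate 2 or 3 (adjusted p from 0.0537 to 0.141). Zfp605, Zfp646 and Zfp608 each overlap an annotated gene on the opposite strand, and strand use in counting is not given in the sources used here.

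**Figure D3:**
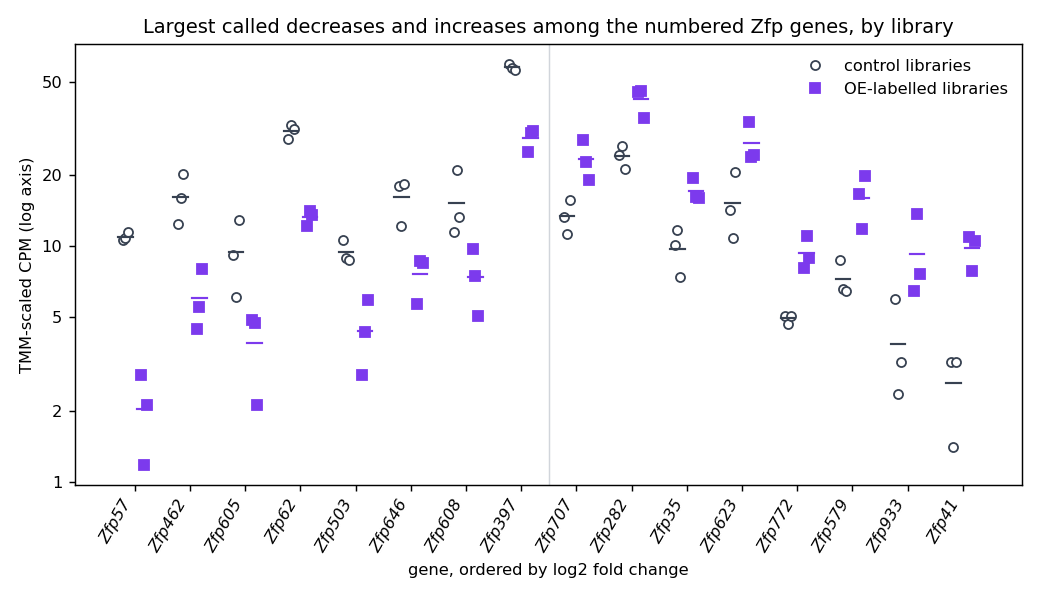
TMM-scaled CPM (vertical, log axis) in each library for the 8 members with the largest decreases and the 8 with the largest increases among called members without overlap, ordered by log2 fold change; circles are control and squares OE-labelled libraries, and each short line is the mean of 3. Zfp57 fell to 1.18 to 2.84 CPM from at least 10.6 CPM. The circles and squares lie apart in every gene shown because the genes were chosen that way.

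Among the increases the largest was that of Zfp41, with 4 finger patterns and no KRAB match, at the left end of a run of Zfp genes on chromosome 15. Its counts were 7, 3 and 7 in control and 27, 20 and 25 in OE-labelled libraries. In CPM these were 3.23, 1.41 and 3.23 against 10.9, 7.86 and 10.6, so that the lowest OE-labelled value was more than 2-fold above the highest control value. The edgeR log2 fold change was 1.87 ± 0.36 SE (adjusted p = 0.00247), a 3.67-fold increase, and it was called in all 17 alternatives in which it was tested. One control library lay at the floor of 3 counts. Zfp579, the member with the highest GC content among the calls (63.8%), rose from 8.76, 6.57 and 6.45 CPM to 16.6, 11.8 and 19.9 CPM. There was no overlap (edgeR log2 fold change 1.14 ± 0.28 SE, adjusted p = 0.00872), and the call held in all 18 alternatives.

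Zfp282, a KRAB gene, was at 24.4, 26.7 and 21.2 CPM in control and 45.4, 45.6 and 35.1 CPM in OE-labelled libraries. The groups were clearly apart (edgeR log2 fold change 0.80 ± 0.17 SE, adjusted p = 0.00466), and the call held in all 18 alternatives. Zfp316, a GC-rich KRAB gene whose finger is shown above, was counted at 25.8, 23.9 and 28.6 CPM against 52.3, 39.7 and 42.7 CPM. It was named for its sequence after its values were seen, and the groups did not overlap (edgeR log2 fold change 0.78 ± 0.17 SE, adjusted p = 0.00432). Zfp933, a KRAB gene of low GC content (40.2%), was at 5.99, 2.35 and 3.23 CPM against 6.48, 13.8 and 7.61 CPM. The highest control and the lowest OE-labelled library almost met (edgeR log2 fold change 1.26 ± 0.41 SE, adjusted p = 0.0357), and the call was lost without control replicate 2 or 3 or OE-labelled replicate 2 (adjusted p from 0.130 to 0.187).

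Zfp772, a KRAB gene, stood at 5.07, 4.69 and 5.07 CPM in control and 8.10, 11.01 and 8.88 CPM in OE-labelled libraries, apart in every pair (edgeR log2 fold change 0.91 ± 0.29 SE, adjusted p = 0.0309). Zfp35, with 17 finger patterns, was at 10.1, 11.7 and 7.37 CPM against 19.4, 16.1 and 16.1 CPM, likewise apart (edgeR log2 fold change 0.82 ± 0.24 SE, adjusted p = 0.0227). Each of these 2 calls was lost on leaving out any of 4 libraries. For Zfp772 these were the 3 control replicates and OE-labelled replicate 2 (adjusted p from 0.0865 to 0.121), and for Zfp35 control replicates 1 and 3 and OE-labelled replicates 1 and 2 (adjusted p from 0.0517 to 0.113). Zfp623 rose from 14.3, 10.8 and 20.7 CPM to 33.6, 24.0 and 24.5 CPM, and Zfp707 from 13.4, 11.3 and 15.7 CPM to 28.4, 22.8 and 19.03 CPM. Neither gene overlapped between groups, and their log2 fold changes were 0.84 ± 0.25 SE (edgeR adjusted p = 0.0229) and 0.80 ± 0.22 SE (edgeR adjusted p = 0.0188). Zfp623 was lost without control replicate 1 or 2 or OE-labelled replicate 1 (adjusted p from 0.0569 to 0.108). Zfp707 was lost without these or without OE-labelled replicate 2 (adjusted p from 0.0556 to 0.0886), and with the GC offset (adjusted p = 0.0793, in a range from 0.00783 to 0.0886).

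Members with a known role were then taken by list. These lists were chosen with earlier results of these data known, so their shares are descriptions and not an independent check. Of 14 listed genes of chromatin silencing, 13 were members (Zfp708 lay below the minimum), and 4 were lower and 1 higher (30.8% and 7.69%, beside 12.7% and 16.5% of all tested genes), with a median log2 fold change of -0.33 against 0.04 for all genes. Besides Zfp57 and Zfp462, Zfp445 and Zfp451 were lower. Zfp445, the second KRAB gene known to protect imprints, was at 100.01, 83.0 and 97.7 CPM in control and 52.7, 73.9 and 78.6 CPM in OE-labelled libraries. The highest OE-labelled value came close to the lowest control value (edgeR log2 fold change -0.45 ± 0.16 SE, adjusted p = 0.0441). Zfp451, which encodes a SUMO ligase, fell from 59.9, 70.8 and 61.3 CPM to 47.0, 48.8 and 43.5 CPM, without overlap (edgeR log2 fold change -0.46 ± 0.13 SE, adjusted p = 0.0207).

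Both calls were lost with the GC offset, at an adjusted p of 0.185 for Zfp445 (the highest of its alternatives, from 0.0102) and 0.269 for Zfp451 (in a range from 0.00828 to 0.282). Zfp445 was also lost without any single control replicate (adjusted p from 0.0658 to 0.155), and Zfp451 without control replicate 2 or 3 (adjusted p from 0.0570 to 0.113). Zfp512 was the higher gene of the list, at 28.6, 24.9 and 20.7 CPM against 33.2, 39.7 and 38.5 CPM. The groups did not overlap (edgeR log2 fold change 0.59 ± 0.17 SE, adjusted p = 0.0233), but the call was lost without control replicate 2 or 3 or OE-labelled replicate 2 (adjusted p from 0.0767 to 0.114). Zfp644, a partner of the histone methyltransferases G9a and GLP and the most abundant gene of the list, was at 106, 89.6 and 103 CPM against 118, 91.6 and 85.4 CPM. Its ranges overlapped and its edgeR log2 fold change of -0.01 ± 0.14 SE changed sign in several alternatives.

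All 10 listed genes of RNA binding, decay and ribosomes were members, and 2 were lower and 1 higher (20% and 10%, beside 12.7% and 16.5% of all tested genes; median log2 fold change -0.24). Zfp106 is described above. Zfp638, whose product binds nuclear RNA and unintegrated retroviral DNA, was at 78.8, 82.1 and 113 CPM in control and 58.7, 61.7 and 63.4 CPM in OE-labelled libraries. Control replicate 3 stood apart from the other control values, and the edgeR log2 fold change of -0.58 ± 0.15 SE (adjusted p = 0.0128) was -0.39 without it (adjusted p = 0.0860). That call was lost with the GC offset too (adjusted p = 0.124, in a range from 0.000923 to 0.125). Zfp622, which encodes an assembly factor of the large ribosomal subunit, rose from 95.4, 90.1 and 110 CPM to 156, 142 and 122 CPM, without overlap (edgeR log2 fold change 0.51 ± 0.13 SE, adjusted p = 0.0113). Its call was lost without control replicate 1 or 2 or OE-labelled replicate 2 (adjusted p from 0.0552 to 0.0739). Zfp36, the gene of the mRNA decay factor tristetraprolin, stood at 14.7, 10.3 and 11.98 CPM against 4.05, 11.01 and 15.6 CPM. OE-labelled replicate 1 lay below all other libraries and replicate 3 above them (edgeR log2 fold change -0.28 ± 0.37 SE, adjusted p = 0.605). Zfp36 was chosen after its values were seen.

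Of 10 listed genes of epithelial and developmental regulation, 8 were members (Zfp423 and Zfp521 were below the minimum), and 3 were lower and none higher (37.5% lower, beside 12.7% lower and 16.5% higher among all tested genes; median log2 fold change -0.12). Zfp704, a relative of Zfp703, was at 122, 130 and 134 CPM in control and 75.4, 75.1 and 87.9 CPM in OE-labelled libraries. The groups were tight and far apart (edgeR log2 fold change -0.69 ± 0.12 SE, adjusted p = 0.00118), and the call held in all 18 alternatives. Zfp148, which encodes a factor of GC-rich promoters, fell from 88.5, 96.2 and 110 CPM to 72.1, 78.3 and 66.4 CPM, without overlap (edgeR log2 fold change -0.44 ± 0.13 SE, adjusted p = 0.0218). It was lost without control replicate 2 or 3 (adjusted p from 0.0706 to 0.124) and with the GC offset (adjusted p = 0.362, in a range from 0.00702 to 0.378). The third was Zfp503, while Zfp703 showed no difference beyond its spread.

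The 7 listed genes of general transcription and protein turnover gave 8 rows, of which 1 was lower (Zfp91) and 1 higher (12.5% each, beside 12.7% and 16.5% of all tested genes; median log2 fold change -0.01). The higher gene was Zfp335, a component of histone methyltransferase complexes, at 11.5, 7.51 and 8.29 CPM in control and 23.5, 22.4 and 9.30 CPM in OE-labelled libraries. OE-labelled replicate 3 lay inside the control range, so the edgeR log2 fold change of 1.02 ± 0.34 SE (adjusted p = 0.0387) rested on the other 2. Its call was lost without any single control replicate or without OE-labelled replicate 1 or 2 (adjusted p from 0.0612 to 0.158), and with the GC offset (adjusted p = 0.104, in a range from 0.00159 to 0.158).

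By protein type, 10 of 89 KRAB members were lower and 5 higher (11.2% and 5.62%, beside 12.7% and 16.5% of all tested genes), with a median log2 fold change of -0.16. Of the 118 members without a KRAB match, 22 were lower and 13 higher (18.6% and 11%), with a median of -0.10. The KRAB members had a median of 10.2 CPM, against 18.5 CPM in the others, and the part of depth in the number of calls was not tested. With the GC offset the KRAB members counted 5 lower and 10 higher, and the others 12 lower and 11 higher. Of all tested genes, 10.3% were lower and 12.7% higher under that offset. The number of fingers had a Spearman rho of -0.05 with log2 fold change over 207 members. Of the 62 members with 11 to 15 fingers, 6 were lower and 5 higher (9.68% and 8.06%), and of the 34 with 16 or more, 5 were lower and 1 higher (14.7% and 2.94%), beside 12.7% and 16.5% of all tested genes. With the GC offset the first class counted 2 lower and 7 higher, and the second 3 lower and 2 higher. The shares of all tested genes under the offset are those given above.

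Other families of finger genes were set beside them. Of 33 tested Zbtb genes, which pair fingers with a BTB domain, 6 were lower and 3 higher (18.2% and 9.09%, beside 12.7% and 16.5% of all tested genes; median log2 fold change -0.09), and with the GC offset 3 were lower and 1 higher. Of 13 tested Zscan and Zkscan genes, with a SCAN domain, 1 was lower and none higher (median -0.07), and none passed in either direction with the GC offset. Of 10 Klf genes, the Krüppel-like factors, 2 were lower and 1 higher (median 0.03), and with the GC offset 3 were lower and 1 higher. Under the offset 10.3% of all tested genes were lower and 12.7% higher. No difference between these families and the members was tested.

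KRAB proteins act through a shared set of co-repressors, and these genes were read from a list, also chosen with earlier results of these data known. Of 30 listed symbols 29 had a row in the count table, and 26 were tested. Of these 26, 7 were lower and 3 higher (26.9% and 11.5%, beside 12.7% and 16.5% of all tested genes), with a median log2 fold change of -0.15. With the GC offset 7 were lower and 2 higher, beside 10.3% and 12.7% of all tested genes, and the median was -0.2. Trim28 itself rose, from 128, 144 and 145 CPM to 194, 186 and 181 CPM, without overlap (edgeR log2 fold change 0.43 ± 0.11 SE, adjusted p = 0.00956). Its transcript is GC-rich (59.6%), and its call was lost with the GC offset (log2 fold change 0.18, adjusted p = 0.284) and without control replicate 1 (adjusted p = 0.0715). Setdb1, the histone methyltransferase that TRIM28 recruits, was at 19.8, 19.7 and 13.8 CPM against 8.51, 10.2 and 16.9 CPM. Its ranges overlapped through OE-labelled replicate 3 (edgeR log2 fold change -0.59 ± 0.28 SE, adjusted p = 0.130), and without that library the change was -0.92 and passed.

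Smarcad1, a chromatin remodeller that works with TRIM28, fell from 32.3, 43.6 and 40.1 CPM to 21.1, 16.9 and 18.2 CPM (edgeR log2 fold change -1.04 ± 0.18 SE, adjusted p = 0.00137). Tasor, the scaffold of the HUSH silencing complex, fell from 63.1, 76.5 and 78.8 CPM to 39.7, 28.7 and 38.5 CPM (edgeR log2 fold change -1.03 ± 0.16 SE, adjusted p = 0.000664). Mta2, a subunit of the NuRD deacetylase complex, rose from 77.4, 80.7 and 75.1 CPM to 126, 110 and 136 CPM (edgeR log2 fold change 0.67 ± 0.12 SE, adjusted p = 0.00168). None of these 3 genes overlapped between the groups, and their calls held in all 18 alternatives. Near-identical copies were searched for among the members only. Without control replicate 1 the count for the list was 5 of 26 in place of 10. Over all tested genes the share called was then 17.3% in place of 29.2%.

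The members lie in clusters, and their positions were read against their neighbours. With a gap of at most 1 Mb between neighbours, 132 members fell into 33 runs of 2 or more. Chromosome 7 held 51 members (5 lower, 3 higher; 9.80% and 5.88%) with a median log2 fold change of -0.04, while all 796 tested genes there had a median of 0.20, with 8.79% lower and 24% higher. Chromosome 17 held 25 members, of which 2 were lower (Zfp57 and Zfp160) and none higher, with a median of -0.37 against 0.11 for the 539 tested genes there, of which 10.2% were lower and 18% higher. Zfp160, a KRAB gene, was at 23.5, 20.2 and 27.2 CPM against 12.6, 14.9 and 15.2 CPM, without overlap (edgeR log2 fold change -0.73 ± 0.20 SE, adjusted p = 0.0184; 0.125 with the GC offset). It was chosen after its values were seen.

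A pair of long runs on chromosome 17 held most of these. The run of 12 members from 21008903 to 22867134, 10 of them with a KRAB match, had a median of -0.44 on the log2 scale, 2 of 12 being above 0 and 1 called. The run of 9 from 32765496 to 33631779, 8 with a KRAB match, had a median of -0.40, with 3 above 0 and none called. Few other genes within these runs were tested, 2 in the first (median 0.72) and 4 in the second (median -0.30). The 25 members on chromosome 17 had a median GC content of 39.6%, and with the GC offset their median was -0.26, with 2 higher and 1 lower. Of all tested genes there, 12.1% were higher and 10.4% lower under the offset.

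On chromosome 15 the members went the other way. Of 8 members there, 5 were higher (Zfp41, Zfp622, Zfp623, Zfp706 and Zfp707) and none lower, with a median log2 fold change of 0.57. All 455 tested genes on that chromosome had a median of 0.31 as well, with 34.7% higher and 5.27% lower, and with the GC offset the median was 0.23 with 27.0% higher. The median shift of the chromosome was 0.31, 0.34 and 0.31 in OE-labelled replicates 1 to 3. The run of 5 members from 75616679 to 76892395 had a median of 0.80, and the 45 other tested genes inside it a median of 0.65, with 24 higher and none lower. Within that run Zfp41, Zfp623 and Zfp707 were higher, while Zfp7 was at 18.0, 19.7 and 27.2 CPM against 23.1, 32.6 and 27.5 CPM and overlapped. Zfp251 was at 21.7, 29.1 and 23.5 CPM against 17.8, 20.8 and 17.8 CPM, lower in all 3 OE-labelled libraries but not past the test (edgeR log2 fold change -0.39 ± 0.19 SE, adjusted p = 0.144). Zfp7 and Zfp251 were named after their values were seen. Chromosome 4 had the next highest median over all tested genes (0.24, 25% higher), and of its 9 members 2 were higher and 2 lower. The part of these chromosome-wide shifts in the members' calls was not tested.

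**Figure D4:**
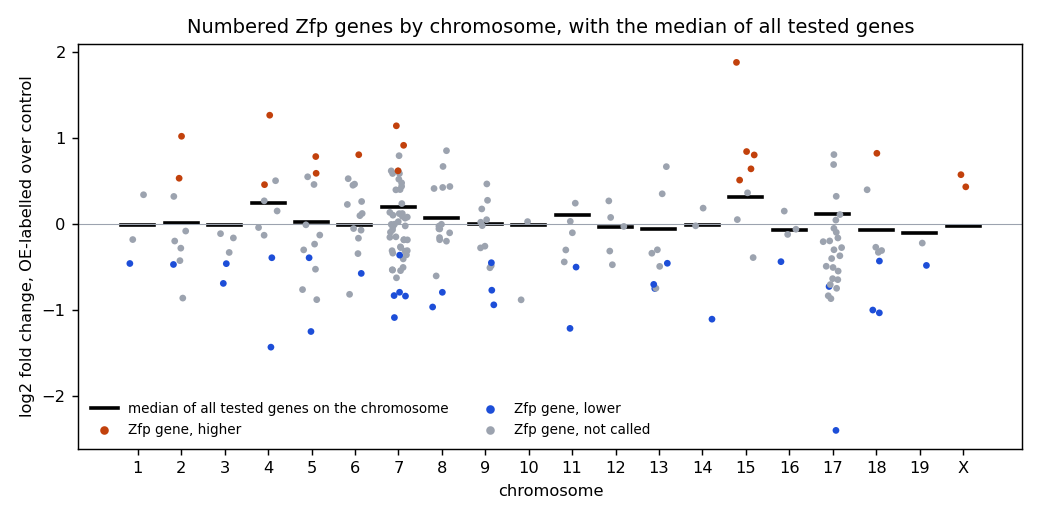
Log2 fold change (OE-labelled over control, vertical) of each member by chromosome (horizontal), with a bar at the median of all tested genes of the chromosome; orange points were called higher, blue points lower and grey points not called. On chromosome 15 the bar lies at 0.31 and 5 of 8 members are orange, whereas on chromosome 17 most members lie under a bar at 0.11.

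Because IGF2BP proteins bind methylated adenosines that often lie in GGAC, the 3′ untranslated regions were searched for TGGAC on the transcribed strand. At least 1 match was present in 12 of 18 higher members (66.7%), 20 of 31 lower members with a region of 100 bases or more (64.5%) and 123 of 198 members (62.1%), beside 61.5% of all tested coding genes. The median number of matches per kb was 0.72 in higher, 0.54 in lower and 0.66 in all members, beside 0.66 in all coding genes. A match is a description of the sequence and not a binding site. The length of the 3′ untranslated region had a rho of -0.08 with log2 fold change over 207 members, and its GC content a rho of 0.33 over 204 members.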

How the data were processed

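Libraries were made from total RNA with a QuantSeq 3′ forward kit, per the labels' protocols. Estimated counts were deposited by the authors without normalization, 2843 of them fractional, which were rounded to whole numbers before testing, although whole counts had been assumed in the design. STAR, HTSeq, mm10 and GRCm38 are named in the submitters' processing notes, with no role; annotation, strand and multi-mapping are not given in the sources used here. OE-labelled and control libraries (3 each) were compared over 10687 genes with edgeR 4.0.16 (filterByExpr, TMM, quasi-likelihood test, no covariates, Benjamini-Hochberg over all tested genes) in R 4.3.3, checked on simulated counts. The simulated counts had the same spread in both groups, so that check does not cover the unequal spread described above. CPM is TMM-scaled, and SE is the estimate over the square root of F. Alternatives used DESeq2 1.42.0 and limma 3.58.1. Positions, composition and motifs came from GENCODE M21 (GRCm38), which held 99.3% of the identifiers; fingers were matched as 2 cysteines 2 to 4 residues apart, 12 residues, and 2 histidines 3 to 5 apart. Floors cover counting error only.

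The members and lists were chosen with earlier results of these data known. Named are the 8 highest and 8 lowest called members without overlap, the 6 most abundant, called members and the most abundant of each role list, up to 4 called co-repressor genes with Trim28 and Setdb1, and the genes at the minimum. One gene selected by this rule is not reported here.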

Additional observations from a re-analysis of the deposited data

How the results depend on the processing

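The called members (50, with 32 lower and 18 higher) numbered 25 with the DESeq2 test (19 lower, 6 higher) and 15 at an adjusted p below 0.01 (10 lower, 5 higher). The share of all tested genes at that stricter threshold is not given here. With the GC offset 38 members were called (17 lower, 21 higher), which is 18.2% of the members beside 23.0% of all tested genes. The replicate block and GC offset together gave 41 (19 lower, 22 higher), 19.6% of the members beside 25.5% of all tested genes. Equally numbered libraries did not deviate together (correlations of 0.10, 0.02 and 0.07), so their numbers were not taken as pairs. With the replicate block alone 44 members were called (27 lower, 17 higher), which is 21.1% of the members beside 29.1% of all tested genes. Counts under the other scalings, filters, limma-voom fits and equal depth stayed within 1.5 times. Leaving out single libraries gave 18 to 56 called members, 9 to 41 lower and 6 to 24 higher, and 5 to 12 co-repressor genes, which numbered 6 at an adjusted p below 0.01. Without single libraries 8.61% to 26.8% of the members were called, beside 15.9% to 32.6% of all tested genes. The median log2 fold change of the members (-0.131) was negative throughout: -0.174 with DESeq2 size factors and with the DESeq2 test, -0.084 with library totals, -0.190 without abundant RNA, -0.081 with the GC offset, -0.085 with that and the block, and -0.189 to -0.079 without single libraries. Of 679 alternative values over 38 named genes, 569 kept their direction and side of the threshold, 98 lost the call, 1 gained it and 11 changed sign, all in uncalled genes. These were Zfp207 (0.106 with the GC offset, 0.101 with block and offset), Zfp703 (0.040 with library totals, -0.214 to 0.116 without single libraries) and Zfp644 (0.035 with library totals, 0.262 with the GC offset, 0.244 with block and offset, -0.221 to 0.083 without single libraries). The causes were not tested. Members near the minimum hold 60 counts over 6 libraries, so small changes in them were not detectable at this depth.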

Other observations

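Because Zfp57 and Zfp445 protect imprinted regions, 40 imprinted genes were looked up in a list written after the decrease of Zfp57 had been seen. Of these, 21 were tested, and 4 were higher (Rasgrf1, Ascl2, Peg13 and Slc22a18) and 4 lower (Cdkn1c, Impact, Igf2r and Zrsr1) at an edgeR adjusted p below 0.05 (19% in each direction, beside 16.5% higher and 12.7% lower among all tested genes). With the GC offset 3 of these calls were lost, those of Ascl2 (adjusted p = 0.0603), Impact (0.0538) and Zrsr1 (0.0827), and the other 5 were kept. Blcap, not called without the offset, was lower with it (edgeR log2 fold change -0.47, adjusted p = 0.0351). Under the offset 3 were thus higher and 3 lower, beside 12.7% and 10.3% of all tested genes. Rasgrf1, a paternally expressed exchange factor for Ras, was counted at 3.23, 5.16 and 5.99 CPM in control and 16.2, 15.3 and 13.95 CPM in OE-labelled libraries. The groups were far apart (edgeR log2 fold change 1.65 ± 0.28 SE, adjusted p = 0.00111; 0.00175 with the GC offset). Cdkn1c, a maternally expressed inhibitor of cyclin-dependent kinases, fell from 13.4, 15.01 and 15.7 CPM to 6.89, 7.08 and 8.88 CPM, without overlap (edgeR log2 fold change -0.95 ± 0.24 SE, adjusted p = 0.0109; 0.00383 with the GC offset). H19 and Igf2 had at most 2 counts in any library. Parental origin cannot be read from these counts, and no relation to Zfp57 was tested.

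Among the names below the minimum, Zfp459 (58 counts in all) was counted 3, 3 and 4 times in control and 28, 11 and 9 times in OE-labelled libraries. Its groups did not overlap, but it did not pass the low-count filter and has no test; it was picked out after its values were seen.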
